A study of Xenopus laevis with 6 samples.

Results

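The genes described here carry cells through mitosis: the cohesin ring and its loader, condensin, the spindle checkpoint, the aurora and polo kinases, the centromere proteins, the anaphase promoting complex and a few proteins of the spindle and of chromosome untangling. They were chosen by name, with earlier results of these data known. A probe set was kept where the array annotation gives it a single gene symbol that begins with *smc* and a digit, *ncap*, *cenp*, *aurk*, *bub*, *plk* or *anapc*, or that is 1 of a short list of further names such as *mad2l1*, *rad21*, *nipbl* and *top2a*. This gave 114 of the 32539 non-control probe sets, from 73 of 11303 named genes. *Xenopus laevis* carries many genes as a pair of related copies, L and S, which were kept apart, and 21 of the 52 gene names were measured in both copies. Of the exact names, *pttg1*, the securin gene, had no probe set.

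Tadpoles of *X. laevis* at Nieuwkoop–Faber (NF) stage 54, before metamorphosis, were injected intracerebroventricularly (i.c.v.), with 0.6% saline in the control group and with recombinant *Xenopus* leptin (rxLeptin) at 20 ng/g body weight in the other, and tissue was taken 2 h later. The dissected region was the preoptic area/hypothalamus according to the methods, and the sample labels add the pituitary. Each array (Affymetrix GeneChip *Xenopus laevis* Genome 2.0) received RNA of 1 pool of 3 brains, with 3 pools for saline and 3 for rxLeptin, so the spread shown is that between pools and not between animals. The question asked of these arrays was which transcripts respond to leptin in a brain region where it is studied as a signal for cell division.

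In mitosis, cohesin holds sister chromatids together from the time the DNA is copied, and condensin compacts them. NIPBL loads cohesin onto chromatin. The spindle checkpoint, built on unattached kinetochores by MAD1, MAD2, the BUB proteins and the kinase TTK, holds back CDC20, the activator of the anaphase promoting complex. Once every chromosome is attached, that complex marks securin and cyclin B for destruction, separase is freed and cuts the RAD21 subunit of cohesin, and the sister chromatids part. In the tadpole brain, dividing cells line the ventricles and are a small share of the tissue, while cohesin, NIPBL and some of the others are also used outside mitosis, in the folding and transcription of the genome in neurons. In pooled tissue, fewer cells of a type and less RNA per cell cannot be told apart.

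All values are log2 expression values as deposited, on which a difference of 1 is a 2-fold change. Probe sets that varied little over the 6 arrays were set aside, and limma with weighted arrays was run on the 16269 others, with a Benjamini-Hochberg adjustment over all of them. A probe set is said to have risen or fallen after rxLeptin only where its adjusted p was under 0.05. Array medians lay between 7.31 and 7.35. The control transcripts, a sign of RNA quality, set saline pools 1 and 2 apart. The 3′ signal of *actin* exceeded the signal of its middle part by 2.83, 1.61 and 0.77 on saline pools 1 to 3. On rxLeptin pools 1 to 3 it did so by 0.67, 0.60 and 0.66. *gapdh* and *ef1a* were likewise steepest on saline pool 1. Saline pool 3 lay within the rxLeptin range for *gapdh* 3′ minus 5′ (1.02 in 0.93 to 1.11) and *ef1a* 3′ minus middle (2.42 in 2.29 to 2.51). For *gapdh* 3′ minus middle it lay above that range (0.14 against 0.03 to 0.08). The weights were 0.37, 2.28 and 0.34 for the saline pools and 1.58, 3.09 and 0.71 for the rxLeptin pools. Markers of the preoptic area and hypothalamus had a median of 9.47 to 9.61 on every array. Of their 9 probe sets, 7 had a lower unweighted mean after rxLeptin, with a median difference of -0.14, and 1 of 3 tested rose. Markers of dividing cells had a median of 8.55 to 8.67 in the saline pools and 8.61 to 8.98 in the rxLeptin pools, with 3 of 13 tested probe sets risen and 1 fallen. Of the pituitary hormone probe sets, all 10 had a lower unweighted mean after rxLeptin and 1 of 8 tested fell, with list medians of 9.58 to 10.38 on the saline and 8.76 to 9.48 on the rxLeptin arrays. Of the skeletal muscle probe sets 10 of 14 were lower and 3 of 11 tested fell (7.15 to 7.35 against 7.03 to 7.05), and of those of microglia and leukocytes 4 of 5 were higher and 0 of 2 tested passed (5.57 to 5.65 against 5.77 to 5.86). Erythroid probe sets went both ways, 6 higher and 4 lower with 1 of 6 tested risen, although the median of the list was higher on every rxLeptin array (6.81 to 7.09 against 6.50 to 6.78). Of all tested probe sets, 14.6% rose and 9.91% fell. Beside these stood 23.1% risen and 7.69% fallen for dividing cells, 33.3% risen for the preoptic area and hypothalamus and 16.7% risen for erythroid cells. The fallen share was 12.5% for pituitary hormones and 27.3% for skeletal muscle. The part of the shifts of these lists in the results below was not tested. The list medians of progenitors, neurons, oligodendrocytes and pigment cells overlapped between the groups. Of the radial glia and progenitor probe sets, however, 11 of 15 had a higher unweighted mean after rxLeptin. Of the 10 tested, 4 rose (40%, beside 14.6% of all tested probe sets) and 1 fell, and the part of this in the results below was not tested either. None of the tested probe sets of neurons, oligodendrocytes and pigment cells was called.

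Of the 114 mitosis probe sets, 55 passed the variance filter. Of these 12 rose after rxLeptin, from 11 genes, 6 fell, from 4 genes, and 37 did not pass the test. The share called was 32.7% (21.8% higher and 10.9% lower), beside 24.5% of all tested probe sets (14.6% higher and 9.91% lower). The rises were led by *mad2l1.S*, *plk3.L* and *rad21.S*, at log2 fold changes (log2FC) of 1.73 to 1.18, and the falls by *nipbl.S* and *smc3.S*, at -0.97 to -0.63. Cohesin with its loader and separase, 17 of the 55 tested probe sets, held 9 of the 18 calls: 5 rises from 4 genes and 4 falls from 2. The checkpoint, with 9 tested, held 3 rises. No probe set of condensin (1 tested) or of the passenger complex and aurora kinases (7 tested) was called. The median log2FC was -0.10 for the tested members and -0.044 for all tested probe sets. These calls rest on the array weights and on saline pools 1 and 2: without weights, and without either of these pools, limma called 0 probe sets on the whole array. At an unadjusted p under 0.05 there were then 22, 4 and 6 members, against 26 with all arrays weighted. Over all 16269 tested probe sets these counts were 4262, 1740 and 1867, against 7037. With array weights estimated by REML, which did not converge, 27 of the 55 members were called, beside 46.3% of all tested probe sets.

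**Figure D1:**
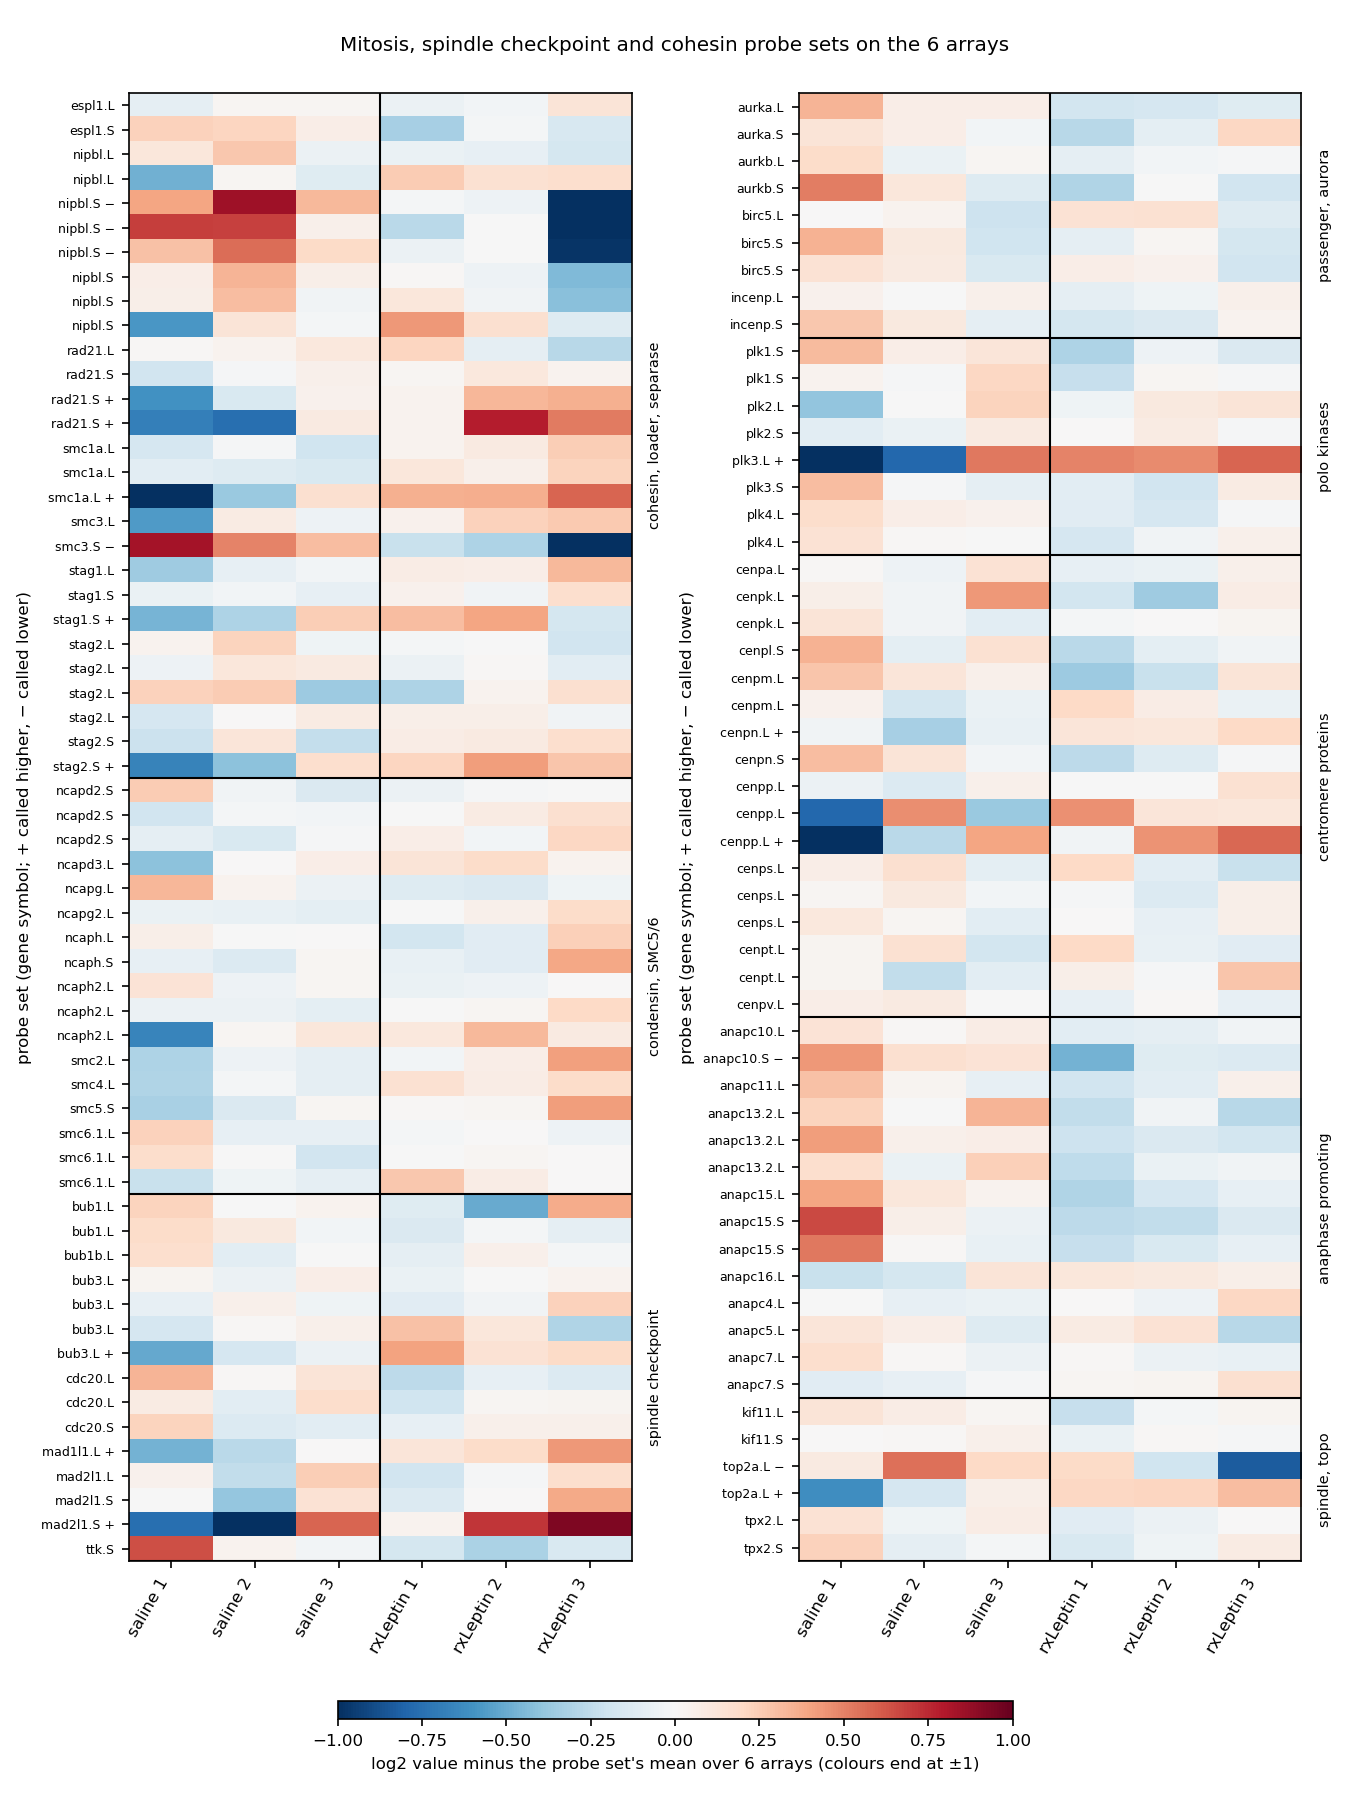
The 114 mitosis probe sets (rows, by gene symbol and role) on the 6 arrays (columns), coloured by the log2 value minus the mean of that probe set over the 6 arrays. The 12 rises (+) are palest or blue on saline pools 1 and 2, the 6 falls (−) are mostly darkest blue on rxLeptin pool 3, and most other rows vary little.

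The cohesin group, with its loader and separase, had 28 probe sets from 13 genes, of which 17 were tested, 5 rose, 4 fell and 8 did not pass. Over the whole array, 14.6% of the tested probe sets rose and 9.91% fell. The median log2FC of the 17 tested members was 0.18, and it depended on the variance filter. With no such filter it was 0.056 (15 of 28 above 0). With a stricter one, an interquartile range above the 75th percentile, it was -0.24 (5 of 11 above 0). The ring is made of SMC1A and SMC3, closed by RAD21 and bound by STAG1 or STAG2. Subunits of the ring lay on both sides: probe sets of *rad21.S*, *smc1a.L*, *stag2.S* and *stag1.S* rose, and that of *smc3.S* fell.

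*rad21.S*, which encodes the subunit that separase cuts, read 6.68, 6.61 and 7.45 in the saline pools and 7.39, 8.15 and 7.88 in the rxLeptin pools in probe set Xl2.54405.1.S1_s_at (log2FC 1.18, standard error (SE) 0.22, adjusted p = 0.00417). Saline pools 1 and 2 were low, and saline pool 3 lay just above rxLeptin pool 1. A brighter probe set of the same gene, Xl2.46522.1.S1_at, went from 10.33, 10.78 and 10.98 to 10.97, 11.27 and 11.29 and rose by 0.44 (SE 0.14, adjusted p = 0.0434), again with saline pool 3 at the level of rxLeptin pool 1. The remaining *rad21.S* probe set, at 8.90 to 9.20, and that of *rad21.L*, at 9.78 to 10.27, were too even to be tested. *smc1a.L*, an arm of the ring, had 9.93, 10.66 and 11.19 after saline and 11.39, 11.40 and 11.61 after rxLeptin in Xl2.4734.1.S1_a_at (log2FC 0.79, SE 0.16, adjusted p = 0.00678). The groups did not overlap, and the saline pools were spread over more than 1 log2 unit while the rxLeptin pools lay close together. Without saline pool 1 the log2FC was 0.50. Its other probe sets, at 0.22 (adjusted p = 0.152) and 0.14 (adjusted p = 0.355), did not pass, although their groups did not overlap either.

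For *stag2.S*, the probe set Xl2.49818.1.S1_at gave 7.53, 7.78 and 8.37 in the saline pools and 8.42, 8.62 and 8.48 in the rxLeptin pools, a rise of 0.72 (SE 0.14, adjusted p = 0.00577) and of 0.47 without saline pool 1. No saline array reached the rxLeptin arrays, and saline pool 3 came within a small distance of them. The other *stag2.S* probe set had a log2FC of 0.05 (adjusted p = 0.757) and the tested one of *stag2.L* -0.23 (adjusted p = 0.248), and 3 more of *stag2.L*, at 10.22 to 11.65, were too even. *stag1.S* measured 8.66, 8.81 and 9.37 after saline and 9.44, 9.52 and 8.95 after rxLeptin in Xl2.3441.1.S1_at (log2FC 0.56, SE 0.16, adjusted p = 0.0246). Here the groups overlapped, with rxLeptin pool 3 below saline pool 3. The log2FC was 0.33 without saline pool 1 and 0.34 without rxLeptin pool 2. The other *stag1.S* probe set, at 9.14 to 9.40, was too even to be tested. Its unweighted difference was 0.118, with overlapping groups. *stag1.L* was too even to be tested, at 9.65, 9.92 and 9.98 against 10.08, 10.08 and 10.33, with no overlap.

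In contrast to these subunits, *smc3.S*, the S copy of the other arm, fell. Xl2.47096.1.S1_at went from 8.44, 8.10 and 7.92 in the saline pools to 7.38, 7.30 and 6.51 in the rxLeptin pools (log2FC -0.90, SE 0.18, adjusted p = 0.0062). Every rxLeptin pool lay below every saline pool, and rxLeptin pool 3 was the lowest. The L copy, *smc3.L*, read 8.09, 8.73 and 8.60 after saline and 8.70, 8.88 and 8.92 after rxLeptin, with saline pool 1 low and a log2FC of 0.20 (SE 0.14, adjusted p = 0.285). The difference between the copies was not tested.

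*nipbl*, the cohesin loader, had 8 probe sets, and those of *nipbl.S* did not move alike. Xl2.48056.3.S1_a_at showed 6.81, 7.27 and 6.75 in the saline pools and 6.40, 6.36 and 4.92 in the rxLeptin pools, a fall of 0.97 on the log2 scale (SE 0.27, adjusted p = 0.0244). Xl2.40253.1.S1_s_at fell from 7.67, 7.66 and 7.03 to 6.71, 6.97 and 5.84 (log2FC -0.85, SE 0.22, adjusted p = 0.0192). Xl2.48056.3.S1_x_at, whose name shares its stem with the first, fell from 7.23, 7.50 and 7.13 to 6.88, 6.94 and 5.96 (log2FC -0.63, SE 0.20, adjusted p = 0.0368). In these 3 the groups did not overlap and rxLeptin pool 3 stood well below rxLeptin pools 1 and 2. Without saline pool 2 the log2FC of the first was -0.59 and of the last -0.38, and without rxLeptin pool 1 they were -1.51 and -0.98. Without rxLeptin pool 2 the 3 had log2FC of -1.49, -1.32 and -1.003 in the order given.

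The brighter *nipbl.S* probe sets, all named Xl2.48056.1, were not called. Xl2.48056.1.S1_s_at had 8.62, 9.33 and 9.18 after saline and 9.63, 9.36 and 9.07 after rxLeptin (log2FC 0.18, SE 0.16, adjusted p = 0.387), with saline pool 1 the lowest array. The remaining ones were too even: Xl2.48056.1.S1_at read 9.61, 9.88 and 9.60 against 9.56, 9.50 and 9.10, without overlap, and Xl2.48056.1.S1_x_at read 9.56, 9.81 and 9.47 against 9.62, 9.47 and 9.08, with overlap. Both of these lay in the direction of the falls, with unweighted differences of -0.315 and -0.223, and rxLeptin pool 3 was again the lowest array. For *nipbl.L*, Xl2.28627.1.S1_s_at read 9.87, 10.37 and 10.23 after saline and 10.60, 10.51 and 10.52 after rxLeptin, higher on every rxLeptin array, with a log2FC of 0.24 (SE 0.13, adjusted p = 0.157). The second *nipbl.L* probe set, Xl2.55959.1.S1_a_at, went the other way, from 9.57, 9.73 and 9.40 to 9.39, 9.38 and 9.28, without overlap, and was too even to be tested. Suffixes _a, _s and _x mark probe sets that can bind several transcripts, and all 3 fallen *nipbl.S* probe sets carry one. In all, 6 of the 18 called members do, among them the risen Xl2.54405.1.S1_s_at of *rad21.S*, Xl2.4734.1.S1_a_at of *smc1a.L* and Xl2.52004.1.S1_s_at of *bub3.L*.

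Separase, the protease that cuts RAD21, was measured by 1 probe set for each copy. *espl1.S* had a log2FC of -0.34 (SE 0.13, adjusted p = 0.0736), and *espl1.L*, at 6.46 to 6.67, was too even.

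**Figure D2:**
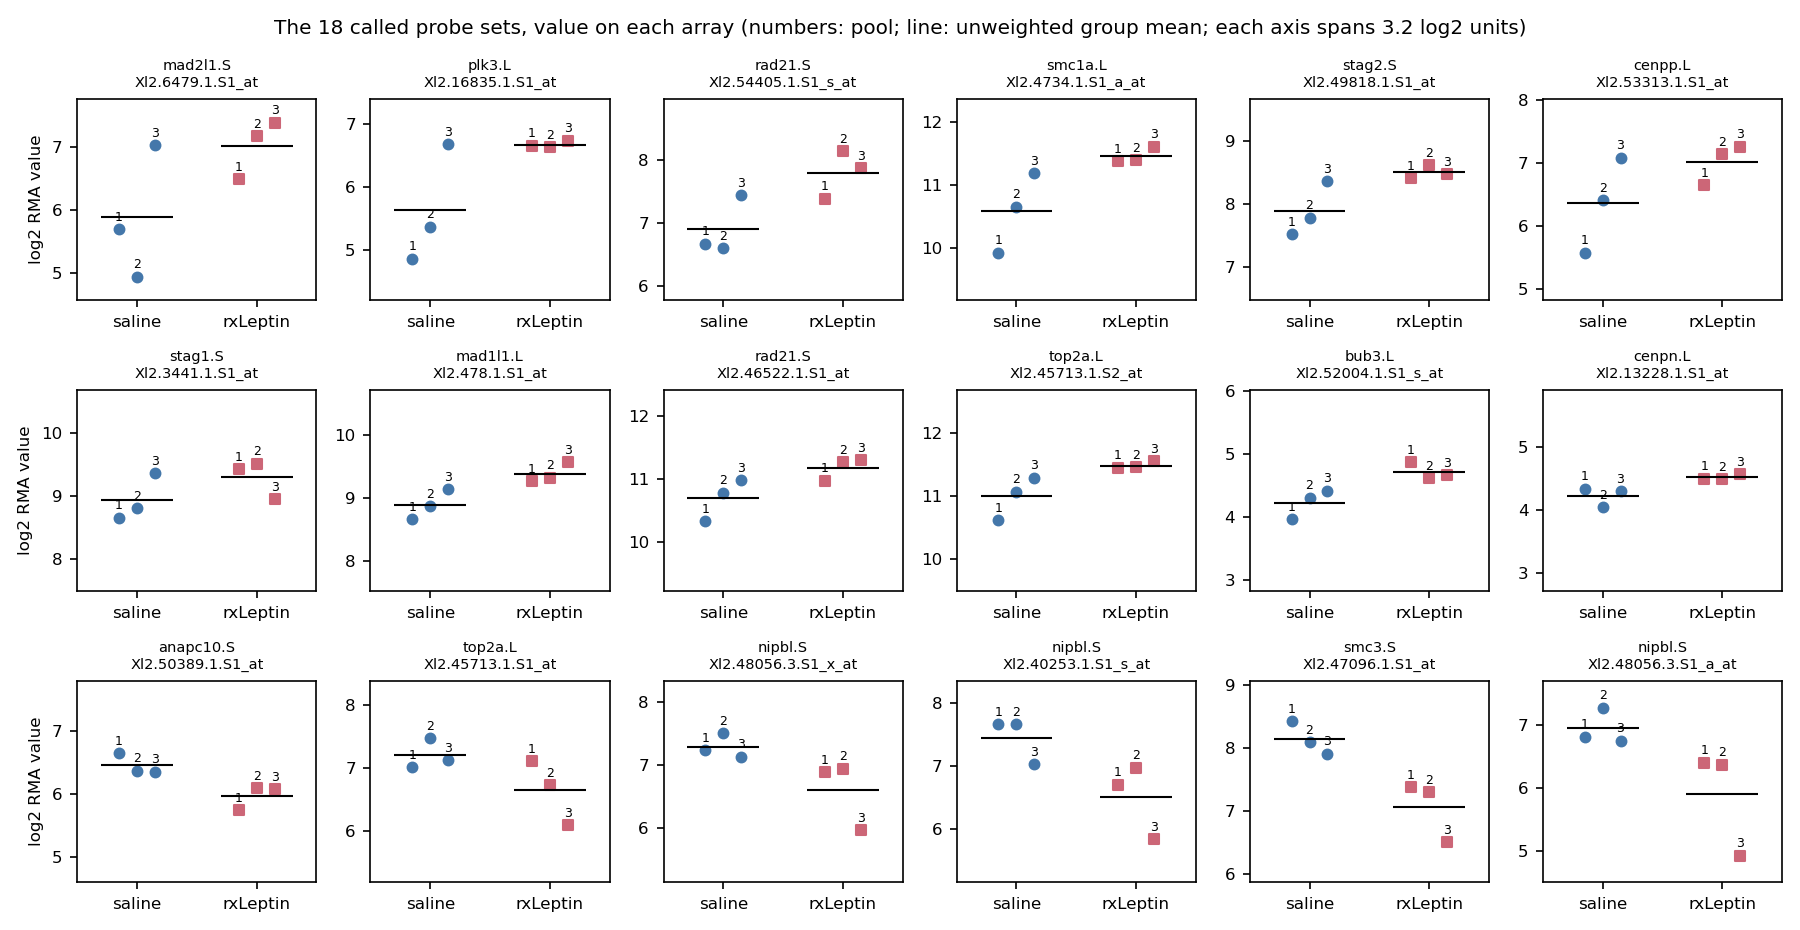
Log2 value (vertical axis, spanning 3.2 units in each panel) of the 18 called probe sets on the 3 saline arrays (circles) and the 3 rxLeptin arrays (squares), with the pool number beside each point and a line at the unweighted group mean. The groups do not overlap in 11 panels, and saline pool 3 lies within the rxLeptin range in 6 of the 12 rises and in 0 of the 6 falls.

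The spindle checkpoint group had 15 probe sets from 9 genes. Of the 9 tested, 3 rose and 6 did not pass, beside 14.6% risen among all tested probe sets. The median log2FC of the 9 was 0.12, and -0.056 without saline pool 2. Over all 15 probe sets the unweighted rxLeptin mean lay above the saline mean in 7 and below it in 8. The median unweighted difference was -0.023. *mad2l1.S*, which encodes the MAD2 protein that binds and restrains CDC20, had the largest log2FC of all 55 tested members. In probe set Xl2.6479.1.S1_at it measured 5.69, 4.94 and 7.03 in the saline pools and 6.48, 7.17 and 7.39 in the rxLeptin pools (log2FC 1.73, SE 0.31, adjusted p = 0.00391). Saline pool 2, which carried most of the weight of its group, was the lowest, and saline pool 3 lay above rxLeptin pool 1. The log2FC was 1.02 without saline pool 1 and 0.63 without saline pool 2. The brighter probe set of the gene, Xl2.6479.1.S2_at, had 10.08, 9.70 and 10.22 against 9.95, 10.09 and 10.46, with a log2FC of 0.29 (SE 0.15, adjusted p = 0.152) and overlapping groups. *mad2l1.L*, in Xl2.29023.1.S1_at, had 8.96, 8.66 and 9.16 against 8.72, 8.90 and 9.08 (log2FC 0.12, SE 0.14, adjusted p = 0.522), so its saline and rxLeptin arrays covered nearly the same range.

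*mad1l1.L*, whose protein tethers MAD2 to the kinetochore, rose by 0.46 (SE 0.13, adjusted p = 0.0232), from 8.67, 8.87 and 9.14 in the saline pools to 9.26, 9.32 and 9.57 in the rxLeptin pools. There was no overlap. *bub3.L*, which recruits BUB1 and BUBR1 to kinetochores, rose by 0.42 (SE 0.13, adjusted p = 0.0366) in Xl2.52004.1.S1_s_at, from 3.96, 4.31 and 4.42 to 4.87, 4.62 and 4.67. The groups did not overlap, but this signal was dim, under 5.15, the lower quartile of the probe set means. The bright *bub3.L* probe set, Xl2.7644.1.A1_a_at, stayed between 10.87 and 11.00 and was too even to be tested, as was another, a dim one. The last, also dim, had a log2FC of 0.12 (adjusted p = 0.525).

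The checkpoint kinases did not pass. *ttk.S*, also known as MPS1, was dim and had a log2FC of -0.36 (SE 0.14, adjusted p = 0.0724). *bub1.L* had -0.31 (SE 0.19, adjusted p = 0.209) in 1 probe set and was too even in the other. *bub1b.L*, the gene of BUBR1, was too even, at 8.93 to 9.21. *cdc20.L*, the target of the checkpoint, had a log2FC of -0.21 (SE 0.12, adjusted p = 0.203), while its second probe set and *cdc20.S*, at 9.08 to 9.44, were too even.

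Condensin and the related SMC5/6 complex, which acts in DNA repair, were even. Of 17 probe sets from 11 genes, 1 passed the variance filter, that of *smc4.L*, an arm of condensin, with a log2FC of 0.17 (SE 0.12, adjusted p = 0.269). The others belonged to *smc2.L*, the other arm, to *ncapd2.S*, *ncapg.L*, *ncaph.L* and *ncaph.S* of condensin I, to *ncapd3.L*, *ncapg2.L* and *ncaph2.L* of condensin II and to *smc5.S* and *smc6.1.L*. The rxLeptin mean lay above the saline mean, without weights, in 12 of the 17, with a median difference of 0.157. In 6 of the 17 every rxLeptin array lay above every saline array and in 0 of them below, a share of 35.3% where all non-control probe sets had 11.7% higher and 13.4% lower. Without saline pool 1 the count was 8 of 17, or 47.1% beside 15.4%, and the median difference was 0.107. That median ran from 0.104, without rxLeptin pool 3, to 0.183, without rxLeptin pool 1, as each array was left out in turn. These probe sets are not independent of each other, and no test was made of the group. The probe set at the median of the group, Xl2.3351.1.S1_at of *ncapd2.S*, read 9.22, 9.39 and 9.38 in the saline pools and 9.40, 9.49 and 9.57 in the rxLeptin pools. Saline pool 1 was its lowest and rxLeptin pool 3 its highest array, and the groups came close to each other. Of the 5 that lay lower, *ncapg.L* had the largest difference, at -0.207.

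The chromosomal passenger complex, which corrects faulty attachments, was measured through *aurkb*, *incenp* and *birc5*, the gene of survivin, and the related spindle pole kinase through *aurka*. None of the 7 tested probe sets passed, at log2FC of -0.27 to 0.11 and a median of -0.18. *aurka.L* had -0.27 (SE 0.12, adjusted p = 0.101), *aurkb.S* -0.25 (SE 0.14, adjusted p = 0.180), *incenp.S* -0.23 (SE 0.12, adjusted p = 0.154) and *aurka.S* -0.18. *birc5.S* had -0.14, in a dim probe set, and -0.05. *birc5.L*, also dim, had 0.11, and *aurkb.L* and *incenp.L* were too even. Over all 9 probe sets the unweighted rxLeptin mean lay below the saline mean in 8. Saline pool 1 stood out here: the mean of the 9, each set against its own mean over the arrays, was 0.22 on saline pool 1, 0.055 and -0.073 on the other saline pools, and -0.11, -0.031 and -0.059 on the rxLeptin pools.

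Among the polo kinases, *plk3.L* rose. PLK3 is known as a kinase of stress responses, induced early by growth factors in mammalian cells. Its probe set Xl2.16835.1.S1_at read 4.86, 5.37 and 6.68 in the saline pools and 6.65, 6.63 and 6.73 in the rxLeptin pools (log2FC 1.20, SE 0.20, adjusted p = 0.00303). Saline pool 3 was at the level of the rxLeptin pools, which lay within a narrow range, and only saline pools 1 and 2 were lower. The log2FC was 0.62 without saline pool 1. *plk3.S* was dim and too even, at 3.81 to 4.31. *plk1.S*, the polo kinase of mitotic entry and spindle poles, had a log2FC of -0.24 (SE 0.13, adjusted p = 0.157) in 1 probe set and was too even in the other, and *plk2.L*, *plk2.S* and *plk4.L*, the kinase of centriole duplication, were too even.

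**Figure D3:**
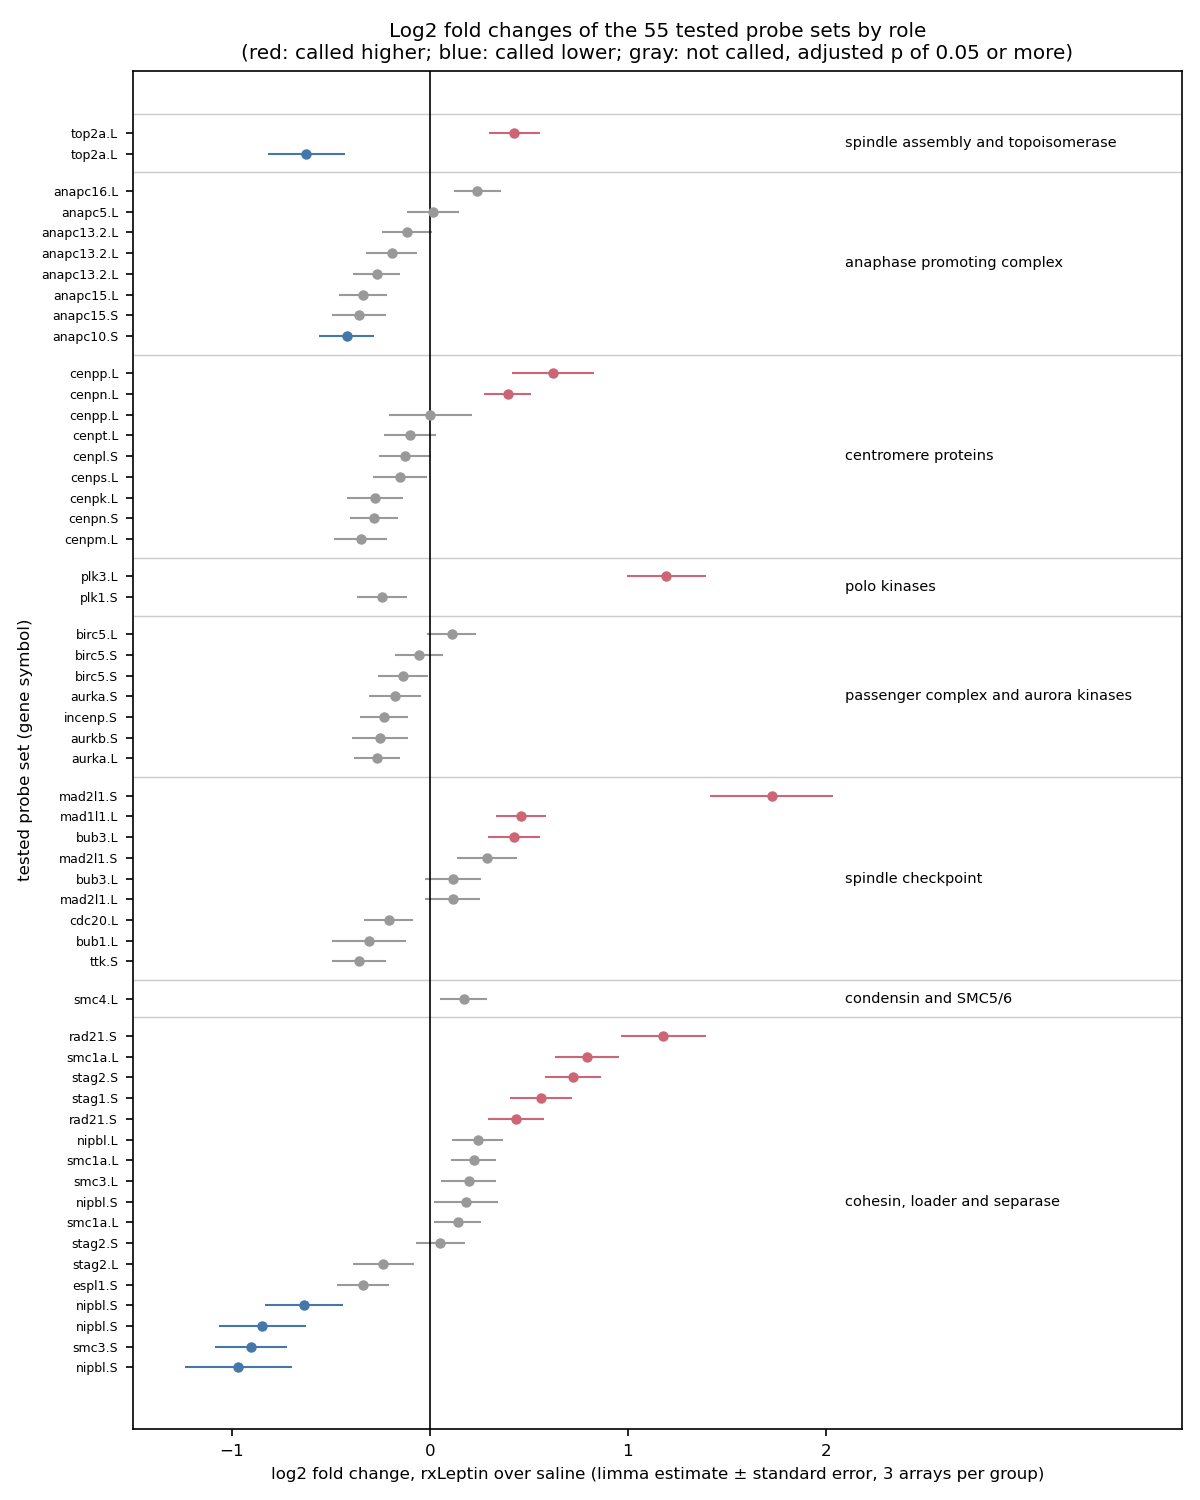
Log2FC of rxLeptin over saline (horizontal axis) for the 55 tested mitosis probe sets by role, with the limma standard error from 3 arrays per group as bars; red marks rises, blue falls and gray those with an adjusted p of 0.05 or more. Cohesin genes run from -0.97 for *nipbl.S*, the lowest of the 55, to 1.18 for *rad21.S*, below *mad2l1.S* at 1.73 and *plk3.L* at 1.20. The passenger and aurora probe sets all lie between -0.27 and 0.11.

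Of the centromere proteins, 17 probe sets from 10 genes were measured and 9 tested. Of these, 2 rose and 7 did not pass, beside 14.6% risen among all tested probe sets. *cenpp.L*, of the constitutive network on centromeric chromatin, read 5.58, 6.41 and 7.08 after saline and 6.65, 7.14 and 7.26 after rxLeptin in Xl2.53313.1.S1_at (log2FC 0.62, SE 0.21, adjusted p = 0.0449). Saline pool 1 was low and saline pool 3 lay within the rxLeptin range. The log2FC was 0.27 without saline pool 1 and 0.997 without saline pool 3. A second *cenpp.L* probe set had a log2FC of 0.003 (adjusted p = 0.992) and the last was too even. *cenpn.L*, which reads the CENP-A nucleosome, rose by 0.39 (SE 0.12, adjusted p = 0.0342), from 4.33, 4.04 and 4.29 to 4.49, 4.48 and 4.57, without overlap but dim, and by 0.18 without saline pool 2. Its S copy, *cenpn.S*, had a log2FC of -0.28 (SE 0.12, adjusted p = 0.0964). The other tested probe sets had -0.35 (adjusted p = 0.0711) for *cenpm.L*, -0.28 (adjusted p = 0.147) for *cenpk.L*, -0.15 for *cenps.L*, -0.13 for *cenpl.S* and -0.10 for *cenpt.L*, all of the same network. *cenpa.L*, the histone variant that marks the centromere, at 9.99 to 10.22, and *cenpv.L*, at 12.77 to 12.94, were too even. So were further probe sets of *cenpm.L*, *cenpt.L* and *cenpk.L*, with unweighted differences of 0.138, 0.214 and 0.006, and of *cenps.L*, at -0.012 and -0.059. Over all 17 the unweighted rxLeptin mean lay above the saline mean in 8 and below it in 9.

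The *anapc* genes of the anaphase promoting complex had 14 probe sets from 11 genes, of which 8 were tested. Of these, 1 fell and 7 did not pass, beside 9.91% fallen among all tested probe sets. *anapc10.S*, whose protein helps the complex to bind its substrates, fell by 0.42 on the log2 scale (SE 0.14, adjusted p = 0.0440), from 6.64, 6.37 and 6.35 in the saline pools to 5.74, 6.08 and 6.07 in the rxLeptin pools. The groups did not overlap and rxLeptin pool 1 was the lowest. Of the tested subunits that did not pass, *anapc15.S* had a log2FC of -0.36 (SE 0.14, adjusted p = 0.0690), *anapc15.L* -0.34 (SE 0.12, adjusted p = 0.0598) and *anapc13.2.L* -0.27, -0.19 and -0.11 in its 3 probe sets. *anapc5.L*, which was dim, had 0.02 and *anapc16.L* 0.24. A second *anapc15.S* probe set, *anapc10.L*, *anapc11.L*, which encodes the catalytic RING subunit, *anapc4.L*, *anapc7.L* and *anapc7.S* were too even.

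Over the 14 *anapc* probe sets, the unweighted rxLeptin mean lay below the saline mean in 11, with a median difference of -0.197, where the median over all non-control probe sets was -0.027. In 7 of the 14, or 50.0%, every rxLeptin array lay below every saline array, beside 13.4% of all non-control probe sets, and without saline pool 1 the count was again 7, beside 15.1%, with a median difference of -0.12. Set against its own mean, the group averaged 0.23 on saline pool 1, 0.008 and 0.038 on saline pools 2 and 3, and -0.15, -0.069 and -0.060 on the rxLeptin pools. The saline pool 1 value thus stood well above the others, and the remaining saline pools lay slightly above the rxLeptin pools. Subunits of the complex under other names, *cdc16.L*, *cdc23.L*, *cdc23.S* and *cdc27.S*, had 4 more probe sets, of which 3 lay higher. *cdc16.L* rose by 0.48 (SE 0.12, adjusted p = 0.0181), from 9.94, 9.97 and 10.28 to 10.51, 10.42 and 10.67, without overlap. *cdc23.S* had a log2FC of 0.30 (adjusted p = 0.0873), and *cdc27.S* and *cdc23.L* were too even, with unweighted differences of 0.155 and -0.078. Over all 18 the rxLeptin mean lay below in 12, with a median difference of -0.115. Probe sets of 1 complex on the same arrays are not independent of each other, and no test was made of the group.

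**Figure D4:**
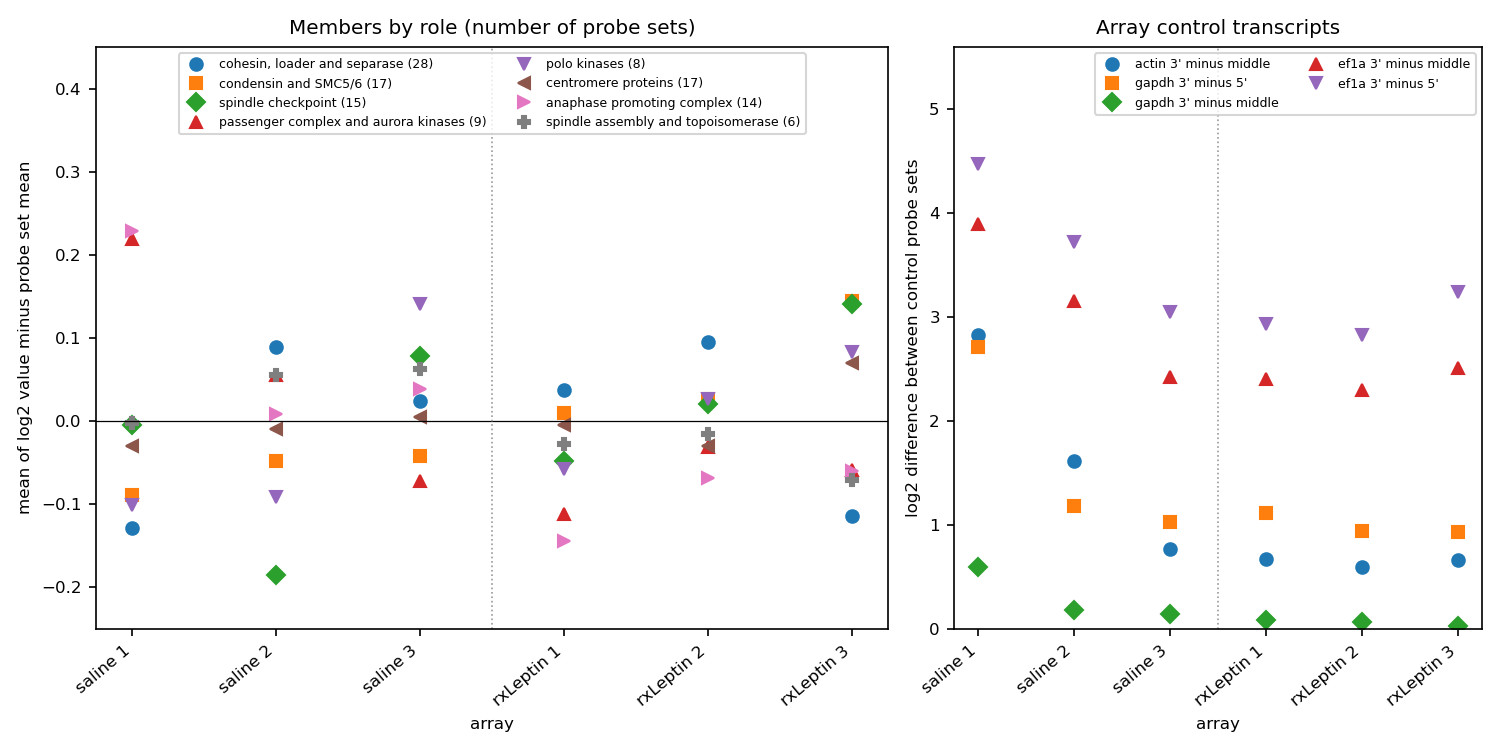
Left, the mean over the probe sets of each role (number in the key) of the log2 value minus the probe set's mean over the 6 arrays, for each array. Right, the log2 difference between control probe sets at the 3′ end and at the middle or 5′ end of *actin*, *gapdh* and *ef1a*. On saline pool 1, where these differences were largest, the roles ranged from -0.13 for cohesin to 0.23 for the anaphase promoting complex. Cohesin stood at -0.11 on rxLeptin pool 3 too, and the spindle checkpoint at -0.005 on saline pool 1.

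Of the spindle and topoisomerase genes, *top2a.L* was the 1 gene with probe sets called in opposite directions. It encodes the enzyme that untangles sister chromatids. Xl2.45713.1.S2_at, the brighter one, rose by 0.43 (SE 0.13, adjusted p = 0.0320), from 10.63, 11.07 and 11.30 to 11.45, 11.46 and 11.56, without overlap, and by 0.28 without saline pool 1. Xl2.45713.1.S1_at fell by 0.62 on the log2 scale (SE 0.20, adjusted p = 0.0379), from 7.02, 7.48 and 7.13 in the saline pools to 7.12, 6.73 and 6.09 in the rxLeptin pools, with rxLeptin pool 1 inside the saline range and rxLeptin pool 3 far below it. Its log2FC was -0.31 without saline pool 2 and -0.97 without rxLeptin pool 1. *kif11.L* and *kif11.S*, of the motor that pushes spindle poles apart, at 9.19 to 10.19, and *tpx2.L* and *tpx2.S*, an activator of aurora A, at 9.68 to 10.65, were too even.

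Across the 18 calls, the groups did not overlap in 11, 6 of the 12 rises and 5 of the 6 falls, where 67.8% of all called probe sets did not overlap. The lowest array was saline pool 1 in 9 of the rises and saline pool 2 in the other 3. The value of saline pool 3 lay between those of the rxLeptin arrays in 6 of the 12 rises, beside 31.3% of all rises on the array, and in 0 of the 6 falls, beside 22.2% of all falls. The falls had rxLeptin pool 3 as their lowest array in 5 of 6 and rxLeptin pool 1 in the other. Over all 114 members, tested or not, the groups did not overlap in 17 with rxLeptin higher (14.9%, beside 11.7% of all non-control probe sets) and in 19 with rxLeptin lower (16.7%, beside 13.4%). The 59 members that were too even had unweighted differences of -0.315 to 0.348, and with no variance filter 0 of them were called and 4 had an unadjusted p under 0.05. In that fit 34 of the 114 members and 8400 of the 32539 non-control probe sets had such a p. In that unfiltered fit, 5 of the 114 members were called, beside 4.29% of all probe sets: *rad21.S* (Xl2.54405.1.S1_s_at), *smc1a.L*, *stag2.S*, *plk3.L* and *smc3.S*.

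**Figure D5:**
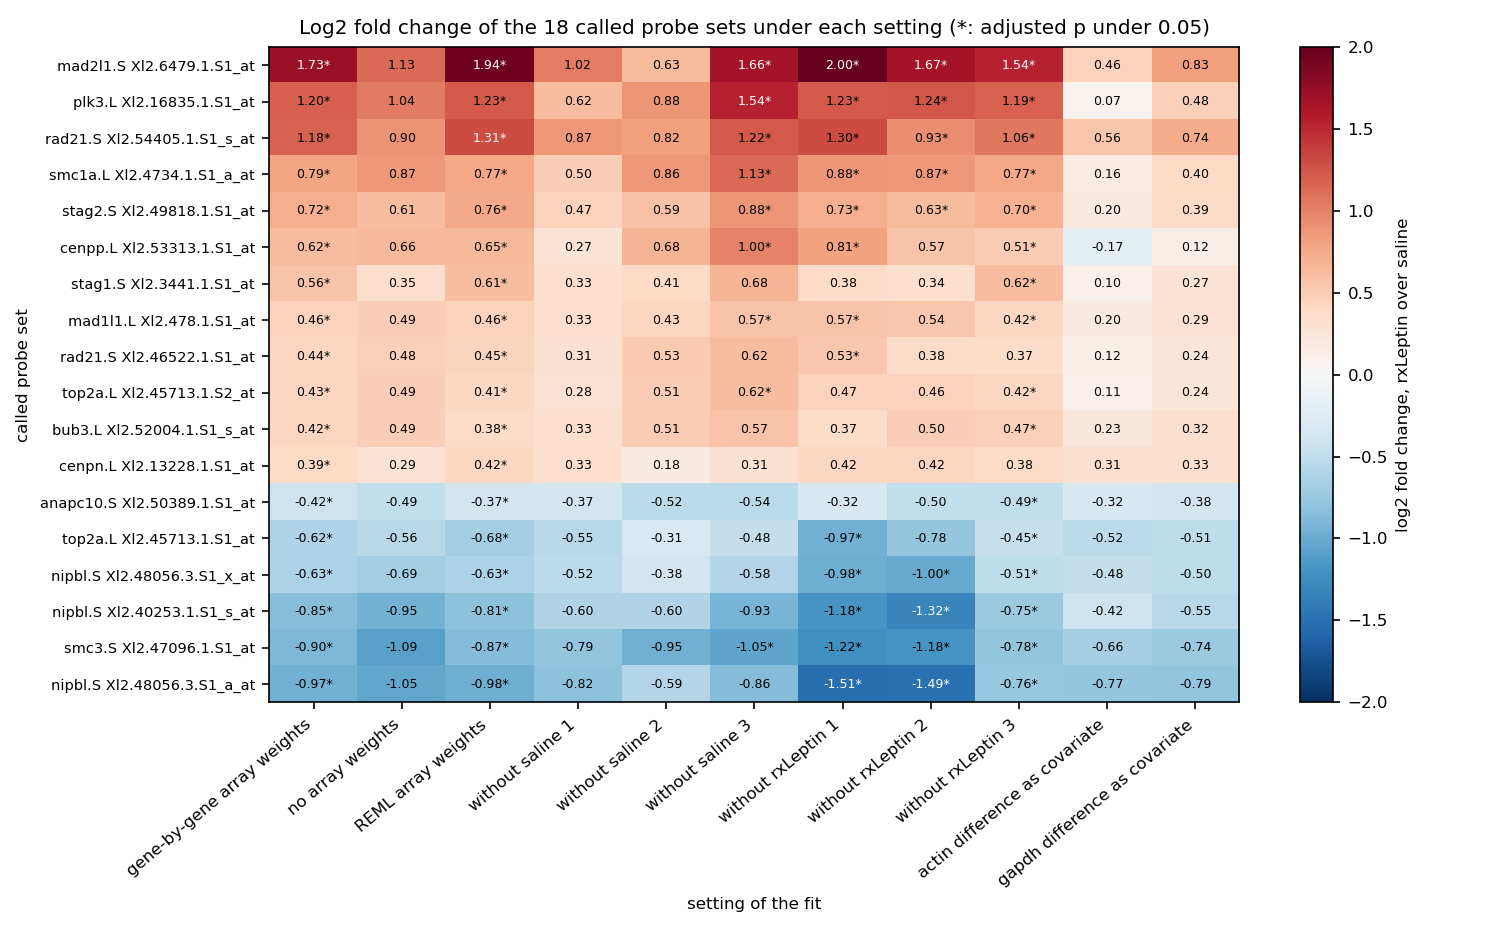
Log2FC (colour and number) of the 18 called probe sets (rows) under 11 settings of the fit (columns), with an asterisk where the adjusted p was under 0.05. No asterisk appears without array weights, without saline pool 1 or 2 or with a control difference as covariate, and the signs hold in every column except for *cenpp.L* at -0.17 with the *actin* difference.

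All 18 kept their direction when any 1 array was left out, but they had been called on these same arrays, so this lends them no support. *rad21.S* (Xl2.54405.1.S1_s_at), *smc1a.L*, *smc3.S*, *stag2.S*, *plk3.L* and *mad2l1.S* stayed called without saline pool 3 and without each of the rxLeptin pools in turn, and without saline pool 1 or 2 none of the 18 did. With the *actin* difference entered as a covariate, 0 of the 55 members passed, 2 had an unadjusted p under 0.05, and 17 of the 18 kept their direction. That difference was higher on every saline array than on any rxLeptin array, so the covariate and the treatment overlap. The rises shrank under it, *plk3.L* from 1.20 to 0.07, *smc1a.L* from 0.79 to 0.16 and *mad2l1.S* from 1.73 to 0.46, and *smc3.S* went from -0.90 to -0.66 and *nipbl.S* (Xl2.48056.3.S1_a_at) from -0.97 to -0.77.

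The other genes of mitosis, taken from lists of partners of the same complexes, had 135 probe sets from 92 genes. Of the 72 tested, 12 rose (16.7%, beside 14.6% of all tested probe sets), 8 fell (11.1%, beside 9.91%) and 52 did not pass, with a median log2FC of 0.007. As for the members, none of these calls held without saline pool 1 or without saline pool 2. *ctcf.L*, the DNA-binding protein at which cohesin halts, rose in 3 of its 4 probe sets, most in Xl2.723.1.S1_a_at, from 9.03, 9.41 and 10.31 in the saline pools to 10.26, 10.36 and 10.74 in the rxLeptin pools (log2FC 0.92, SE 0.18, adjusted p = 0.00527), with saline pool 3 inside the rxLeptin range. Without saline pool 1 its log2FC was 0.52. Xl2.55560.1.S1_at rose by 0.81 (SE 0.16, adjusted p = 0.00615), from 5.36, 5.90 and 6.25 to 6.45, 6.73 and 7.01, without overlap. The remaining rise was 0.71, and 0.46 without saline pool 1.

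*pds5a.S*, a cohesin regulator, had 8 probe sets, of which 2 rose. Xl2.8213.2.S1_a_at went from 6.01, 7.37 and 7.74 to 7.96, 7.94 and 7.85, a log2FC of 0.69 (adjusted p = 0.0310) that was 0.38 without saline pool 1, the lowest array by far, and 1.06 and 1.24 without saline pools 2 and 3. Xl2.52218.1.S1_at rose by 0.41 (adjusted p = 0.0238), from 5.90, 5.97 and 5.89 to 6.39, 6.36 and 6.27, with each group close together. Of the others, 2 had log2FC of 0.49 and 0.43, a brighter one had -0.33 (adjusted p = 0.0596), none of which passed, and 3 were too even. The cohesin partners as a list had 5 rises, all of *ctcf.L* and *pds5a.S*, and 0 falls among 15 tested probe sets (33.3% higher, beside 14.6%). *prc1.S*, which bundles microtubules of the spindle midzone, rose by 0.73 (SE 0.14, adjusted p = 0.00604) in its dimmest probe set, from 5.18, 5.18 and 5.92 to 5.94, 5.97 and 6.19, without overlap, and by 0.44 without saline pool 1 or 2. Of its 3 brighter probe sets, 2 had log2FC of 0.19 and 0.18 and did not pass, and the brightest was too even.

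Among the falls, *ube2c.L*, the ubiquitin-conjugating enzyme that works with the anaphase promoting complex, fell by 0.54 on the log2 scale in 1 probe set (SE 0.15, adjusted p = 0.0232). It went from 6.81, 6.34 and 6.16 in the saline pools to 5.83, 5.93 and 5.42 in the rxLeptin pools, without overlap. The brighter *ube2c.L* probe set had a log2FC of -0.32 (adjusted p = 0.0924) and did not pass, also without overlap. *ube2c.S* fell by 0.47 on the log2 scale (adjusted p = 0.0411), again without overlap, and its log2FC was -0.73 without saline pool 2 or 3. *zw10.S*, of the kinetochore, fell by 0.54 on the log2 scale (SE 0.13, adjusted p = 0.0121), from 6.66, 6.27 and 6.03 to 5.80, 5.74 and 5.73. *numa1.L*, which anchors microtubules at spindle poles, fell by 0.53 on the log2 scale (SE 0.16, adjusted p = 0.0344). It had 4.89, 5.37 and 4.60 against 4.72, 4.76 and 4.35, a dim signal with overlapping groups. Without saline pools 1 and 2 in turn its log2FC was -0.29 and -0.05. Of the markers of dividing cells, *mki67.S* fell by 0.81 on the log2 scale in 1 probe set, from 8.46, 8.56 and 8.04 to 7.73, 7.65 and 7.67. Its log2FC was -0.62 without saline pool 1 and -0.57 without saline pool 2. The cyclin gene *ccna2.L* rose by 0.75, from 8.58, 8.85 and 9.85 to 9.58, 9.70 and 9.86. Its log2FC was 0.33 without saline pool 1 and 0.46 without saline pool 2. The other rises of the list were *mcm4.L* at 0.50 (adjusted p = 0.0266) and *mcm7.L* at 0.42 (adjusted p = 0.0283). Without saline pool 1 they had 0.32 and 0.36, and without saline pool 2 they had 0.50 and 0.38. None of these marker calls held without saline pool 1 or without saline pool 2. The remaining *mki67.S* probe sets did not pass or were too even.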

How the data were processed

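The deposited log2 values are the authors' output of RMA (Robust Multichip Average, affy package), and 32635 probe sets on 6 arrays were used, 96 of them controls and 64 of foreign reporter sequences, which were kept. Here the controls were removed and the more variable 50% were kept, with an interquartile range above 0.173 (the cut-offs of the authors' filter are not given). The treatment effect was estimated by limma 3.58.1 (R 4.3.3) with gene-by-gene array weights, eBayes and Benjamini-Hochberg adjustment over all tested probe sets. The default REML weights gave a warning that they had not converged. No depth applies to arrays, and their number limits the precision. The p-values set the weighted group difference against the spread between pools, moderated over all tested probe sets. An exact test with 3 pools a group has 0.1 as its smallest p. Roles, partner genes and cell type markers were listed by name. All 114 probe sets matched the gene table of Xenopus_laevis_v10.1, used for names only. Full values were given for every probe set of *mad2l1*, *smc3* and *nipbl*, for all called members, and for the 3 largest rises and falls among partners. The genes *cdc16.L*, *pds5a.S*, *cdc23*, *cdc27.S*, *ube2c.S*, *ncapd2.S*, *mki67.S*, *ccna2.L*, *mcm4.L* and *mcm7.L* were named after their values were seen. Members, lists and tests were chosen with earlier results of these data known. The fit was run on simulated data, where it called 10.4% of log2 changes of 0.5, 83.6% of those of 1 and 98.5% of those of 2. The simulated arrays lacked the difference in control transcripts between the pools. In them saline pool 3 had the same spread as most arrays, whereas here it had the lowest weight. This run therefore does not give the share of changes found on these arrays. It does not bear on whether the calls made here are right. Of the other settings, 18 were listed at the outset and 2 chosen after seeing the data. Tables and figures used Python 3.11.15 and matplotlib 3.10.9.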

Additional observations from a re-analysis of the deposited data

How the results depend on the processing

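All member counts here are higher/lower after rxLeptin, beside the same counts over all tested probe sets. The main counts were 12 and 6, beside 2382 and 1612. They were 0 and 0, beside 0 and 0, without array weights, with saline pools 1 and 2 both left out, with the *actin* or the *gapdh* control difference as a covariate, and under both alternatives chosen after seeing the data (no weights and no saline pool 1; no weights and no variance filter). At an unadjusted p under 0.05 these gave 22, 4, 2, 3, 11 and 28 members and 4262, 1624, 693, 1295, 2282 and 6037 probe sets. REML weights gave 14 and 13, beside 3759 and 3766 (46.3% of those tested). With no variance filter the counts were 4 and 1, beside 894 and 503, and with a filter on low values in its place 3 and 1, beside 805 and 440. Normalizing by quantiles again gave 10 and 4, beside 1976 and 1244, and leaving out probe sets that can bind several transcripts gave 9 and 3, beside 1897 and 1311. The stricter variance filter (11 and 6), median centring (12 and 6) and a trended, robust moderation (10 and 7) stayed within 1.5 times. The stricter filter left 24 members tested and called 4286 of all 8135 tested probe sets in either direction. Median centring called 4417 of 16269 in either direction, and the trended, robust moderation 4434. Leaving out each array gave 0 to 10 members higher and 0 to 7 lower, beside 0 to 2265 and 0 to 1525, with 0 in each without saline pool 1 (1740 probe sets and 4 members at an unadjusted p under 0.05) or without saline pool 2 (1867 and 6). The sign of the log2FC turned for *cenpp.L* (-0.17 with the *actin* difference) and, with saline pools 1 and 2 left out, for *cenpp.L* (-0.084), *plk3.L* (-0.032) and *mad2l1.S* (-0.047). Why the counts moved was not tested. No paired analysis was possible because the replicate numbers follow accession order and pair no pools.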
